A study of Mus musculus with 8 samples.

Results

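The AP-1 family of transcription factors was followed in mouse stromal and fibroblastic cell lines. The members were the genes Fos, Fosb, Fosl1, Fosl2, Jun, Junb, Jund, Atf3 and Maff, found by the gene symbols of the array annotation, which gave 9 of the 18194 genes named on the array, measured by 13 probe sets. All 9 passed the filter on low values used for testing (at least 100 on at least 2 of 8 arrays). Fosb and Atf3 passed it through the OP9 arrays alone. RNA was measured on Affymetrix mouse genome arrays, 2 for each of 4 groups: OP9 cells co-cultured with a pre-B cell line, OP9 cells, MC3T3 cells and NIH3T3 cells. OP9 is a bone marrow stromal line, and its labels give the strain B6C3F1. MC3T3 is an osteoblast-like line and NIH3T3 an embryonic fibroblast line, and both are given the strain Balb/c. In the co-culture experiment of the study the OP9 cells carried the red fluorescent protein mStrawberry. By it the stromal cells were sorted out of the co-culture after a week and treatment with trypsin and EDTA. The methods describe a control culture of OP9 cells kept in parallel in conditioned medium. The labels name the OP9 arrays only as a culture. Whether these cells carried mStrawberry, or were trypsinised and sorted like the co-culture, is not stated. Co-culture, the mStrawberry line and cell handling therefore cannot be told apart in this comparison. Replicate 2 of the MC3T3 arrays is described in the labels as sorted cells, and replicate 1 as a culture. The arrays are titled biological replicates, but separate cultures are not described in the sources used here, and the p-values therefore cover array to array spread, possibly technical.

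AP-1 is a dimer of proteins that hold a basic region and a leucine zipper. Fos proteins bind DNA only with a partner, usually a Jun protein, whereas Jun proteins can also pair with each other. Fos, Fosb, Jun, Junb and Atf3 are immediate early genes, whose transcription rises within minutes of a signal through MAP kinases, calcium or cyclic AMP and falls again soon after, while Fosl1, Fosl2 and Jund are usually induced later or kept at a steadier level. In cells of mesenchymal origin AP-1 is known for its part in proliferation, bone formation and the control of matrix proteases and chemokines.

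The values are intensities on a linear scale, normalized by the authors. Array medians ran from 41.77 to 44.99, and between 34.3 and 36.3% of probe sets per array were at 100 or above. Over genes, the 2 arrays of a group correlated at 0.9896 or more in every group. Precision is limited by having 2 arrays per group. Of the lines' own markers, Cxcl12 and Adipoq were high in OP9 cells, and all 4 named fat cell markers exceeded 100 there. Of 4 named osteoblast markers only Col1a1 reached 100 in MC3T3 cells, where Alpl, Sp7 and Ibsp stayed below it, and Col1a1 was lower in MC3T3 cells (2239 and 2200) than in any other group. The osteoblast label of MC3T3 was thus not borne out by these 4 markers. Runx2 and Bglap, also listed as osteoblast markers, were not found among the probe sets with 1 gene symbol, to which naming was limited. Whether other probe sets of the array measure them was not examined.

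In co-cultured OP9 cells, Fos was 29.0-fold and Fosb 4.16-fold lower than in OP9 cells, and these were the members called there. A call required an adjusted p below 0.05 (limma, Benjamini-Hochberg over 10084 genes) and a difference of at least 2-fold. Thus 2 of 9 members were called lower, beside 2.97% of all genes tested, and 0 of 9 were called higher, beside 2.71% (5.67% in either direction). One of the called members, Fosb, entered the test through its high OP9 values, which favoured a lower value in co-culture, so its call adds nothing to this count and Fos is the member called without that condition. The remaining members differed by less than 2-fold. Fos stood among the genes the study displayed as changed in the co-culture, so its direction is not independent evidence. The median difference of the 9 members was -0.35 on the log2 scale, against -0.05 over all genes. It includes Fosb and Atf3, which both entered the test through their OP9 values, and is a description only.

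**Figure D1:**
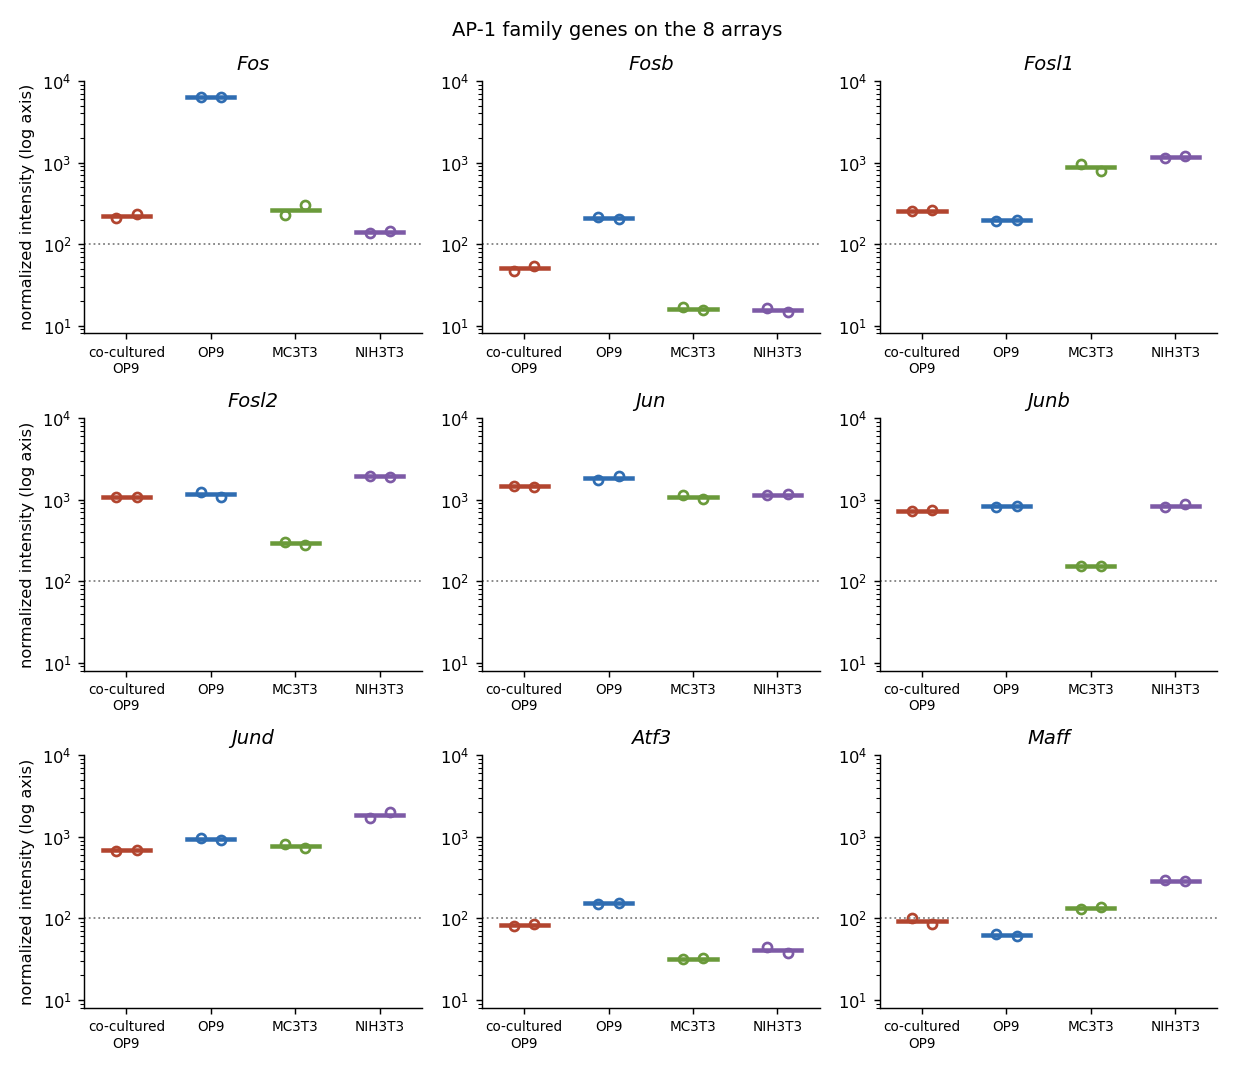
Deposited intensity (log scale) of the AP-1 members on each array, with 2 arrays for each of co-cultured OP9, OP9, MC3T3 and NIH3T3 cells a bar at the group mean and a dotted line at 100. Fos sits at 6401 and 6382 on the OP9 arrays and between 138 and 304 on the other 6 arrays, while Jun stays between 1021 and 1938 on all arrays.

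Fos, a partner that stabilises Jun on DNA and adds to its activity, measured 209 and 233 on the arrays of co-cultured OP9 cells, 6401 and 6382 on those of OP9 cells, 225 and 304 on those of MC3T3 cells and 138 and 143 on those of NIH3T3 cells. The OP9 arrays alone were high, and the arrays of co-cultured OP9 cells lay close to those of MC3T3 cells and overlapped them. The log2 difference of co-cultured OP9 to OP9 cells was -4.86 with a 95% interval of -5.17 to -4.54 (limma adjusted p = 7.54e-07). OP9 cells exceeded NIH3T3 cells by 5.51 (45.5-fold, adjusted p = 2.25e-08) and MC3T3 cells by 4.61 (24.4-fold, adjusted p = 8.61e-08) on the same scale. These comparisons share the OP9 arrays. Co-cultured OP9 cells differed from MC3T3 cells by -0.25, with an interval of -0.56 to 0.07 (limma adjusted p = 0.139).

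Fosb, a close relative of Fos that also needs a Jun partner, measured 47.1 and 53.3 in co-cultured OP9, 215 and 202 in OP9, 16.8 and 15.4 in MC3T3 and 16.3 and 14.6 in NIH3T3 cells. The arrays of co-cultured OP9 cells lay below both OP9 arrays and above all 4 arrays of the other lines, which overlapped each other. Fosb fell by 2.06 on the log2 scale in co-cultured OP9 cells, with an interval of -2.28 to -1.83 (limma adjusted p = 6.35e-06), and the level in OP9 cells was 13.5-fold that of NIH3T3 cells and 13.0-fold that of MC3T3 cells. All arrays but those of OP9 cells were below 100, where background signal compresses folds. In co-culture Fosb still exceeded NIH3T3 cells 3.25-fold and MC3T3 cells 3.12-fold, whereas Fos was 1.57-fold above NIH3T3 cells.

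The promoters of Fos, Fosb and Atf3 are shown with a part of the Jun promoter. They are examples of the short elements through which cyclic AMP and AP-1 itself are known to act on these genes. Fos and Fosb were called lower in co-culture. Atf3 passed the p threshold there, as did Jun and Jund, also lower, and Fosl1 and Maff, which were higher. The windows come from RefSeq (GRCm38.p6) and run from 250 bases before the start of transcription to 50 bases after it, 5′ to 3′ on the strand of the gene. They are Fos at chr12:85473640-85473939 on the plus strand, Fosb at chr7:19309996-19310295 and Atf3 at chr1:191183284-191183583, both on the minus strand, and 30 bases of the Jun window at chr4:95052249-95052278 on the minus strand. Capitals mark TGACG, the core of the cyclic AMP response element, on either strand (CGTCA when read on the other strand), TATAAA, the TATA box, and TGACATCA, the AP-1 element of the Jun promoter.
Fos: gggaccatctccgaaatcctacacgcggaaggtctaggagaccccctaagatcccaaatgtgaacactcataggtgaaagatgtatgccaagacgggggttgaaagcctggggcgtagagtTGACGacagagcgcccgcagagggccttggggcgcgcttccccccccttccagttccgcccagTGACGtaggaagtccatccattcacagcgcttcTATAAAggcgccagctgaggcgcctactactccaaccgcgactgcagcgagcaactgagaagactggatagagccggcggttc
Fosb: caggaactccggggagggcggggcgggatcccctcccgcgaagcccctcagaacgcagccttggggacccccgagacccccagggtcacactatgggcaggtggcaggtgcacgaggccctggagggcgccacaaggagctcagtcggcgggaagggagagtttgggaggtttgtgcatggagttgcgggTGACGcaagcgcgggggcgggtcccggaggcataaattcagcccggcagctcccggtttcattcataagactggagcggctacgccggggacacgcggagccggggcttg
Atf3: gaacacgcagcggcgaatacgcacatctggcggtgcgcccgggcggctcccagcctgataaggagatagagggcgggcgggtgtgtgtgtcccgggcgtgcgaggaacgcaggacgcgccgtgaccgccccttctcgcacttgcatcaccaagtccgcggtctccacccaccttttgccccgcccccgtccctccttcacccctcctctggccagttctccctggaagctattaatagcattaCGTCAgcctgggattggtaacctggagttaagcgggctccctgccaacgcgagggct
Jun: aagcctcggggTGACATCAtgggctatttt

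The Fos window held TGACG at 129 to 125 and at 66 to 62 bases before the start, and TATAAA at 33 to 28 bases. The Fosb window held TGACG at 60 to 56 bases and the Atf3 window held it on the other strand at 7 to 3 bases before the start. In Jun TGACATCA lay 45 to 38 bases before the start. Promoters of 8 of the 9 members were matched, as 10 windows, 3 of them for Maff. Searched on both strands, TGACG was found for 5 of the 8 (Fos, Fosb, Junb, Atf3 and Maff) and in 20.8% of 32851 windows in all. Among these members Junb did not pass the p threshold in co-culture and Maff was 1.49-fold higher there, and their windows are not printed. The printed windows therefore do not link TGACG to a lower value. The full element TGACGTCA, which contains TGACG, was found for Maff alone (1.79% of windows), TGACATCA for Jun and Maff (3.62%), TATAAA for Fos and Junb (13.6%) and the AP-1 site TGACTCA for 0 of the 8 (5.2%). The CArG box, bound by the serum response factor, was found for 0 of the 8 (1.63%). The serum response element of Fos is known to lie further upstream than this window reaches. These matches describe the letters of the windows and are no evidence of binding.

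Fosl1 and Fosl2, which encode Fra-1 and Fra-2, lack the strong activation domain of Fos and are often induced after it. Fosl1 measured 254 and 260 in co-cultured OP9, 192 and 199 in OP9, 972 and 787 in MC3T3 and 1137 and 1202 in NIH3T3 cells. Both NIH3T3 arrays were highest, both OP9 arrays lowest, and no groups overlapped. Thus the order of the lines for Fosl1 was the opposite of that for Fos at its ends. OP9 cells were 5.98-fold below NIH3T3 (log2 difference -2.58, limma adjusted p = 2.79e-07) and 4.48-fold below MC3T3 cells (-2.16, adjusted p = 1.09e-06). Co-cultured OP9 cells were 1.32-fold above OP9 cells (0.40, interval 0.15 to 0.64, adjusted p = 0.0181), which passed the p threshold but not 2-fold. Its other probe set gave 91.9 and 108 in co-cultured OP9, 86.2 and 67.5 in OP9, 279 and 340 in MC3T3 and 439 and 463 in NIH3T3 cells, in the same order.

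Fosl2 gave 1074 and 1093 in co-cultured OP9, 1258 and 1073 in OP9, 307 and 276 in MC3T3 and 1962 and 1888 in NIH3T3 cells. MC3T3 arrays alone were low, and the arrays of co-cultured OP9 and OP9 cells overlapped. OP9 cells were 3.99-fold above MC3T3 cells (log2 difference 2.0, limma adjusted p = 1.06e-06), and MC3T3 cells 6.61-fold below NIH3T3 cells (-2.73, adjusted p = 1.74e-07). In co-culture the difference was -0.10, with an interval of -0.32 to 0.12 (adjusted p = 0.426). The probe sets disagreed here. The other probe set measured 201 and 191 in co-cultured OP9, 132 and 138 in OP9, 106 and 85.1 in MC3T3 and 467 and 518 in NIH3T3 cells. By this one, the co-culture difference was 0.54 and that of OP9 to MC3T3 cells 0.50, both under 2-fold, and OP9 cells were called below NIH3T3 cells at -1.87.

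Jun, which can bind DNA without a Fos partner and activates its own promoter, varied least among the members. Its values were 1482 and 1424 in co-cultured OP9, 1759 and 1938 in OP9, 1126 and 1021 in MC3T3 and 1138 and 1164 in NIH3T3 cells. OP9 arrays were highest, followed by those of co-cultured OP9 cells, and neither overlapped the other lines. Jun was 1.27-fold lower in co-cultured OP9 than in OP9 cells (log2 difference -0.35, interval -0.54 to -0.16, limma adjusted p = 0.0116) and was called in no comparison. By its other probe set OP9 cells were called above NIH3T3 cells, at 1056 and 1074 against 429 and 459 (log2 difference 1.26), where the first gave 0.68.

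Junb, which activates weakly and can restrain Jun, measured 718 and 749 in co-cultured OP9, 809 and 848 in OP9, 153 and 154 in MC3T3 and 812 and 883 in NIH3T3 cells. MC3T3 arrays alone were low, and OP9 and NIH3T3 arrays overlapped. OP9 cells were 5.41-fold above MC3T3 cells (log2 difference 2.43, limma adjusted p = 9.0e-08) and MC3T3 cells 5.53-fold below NIH3T3 cells (-2.47, adjusted p = 7.54e-08). The co-culture difference was -0.18, with an interval of -0.35 to -0.01 (adjusted p = 0.0882).

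Jund, the most evenly expressed of the Jun genes in many tissues, gave 677 and 684 in co-cultured OP9, 955 and 919 in OP9, 827 and 729 in MC3T3 and 1710 and 2023 in NIH3T3 cells. NIH3T3 arrays were highest, and no groups overlapped. MC3T3 cells were 2.39-fold below NIH3T3 cells (log2 difference -1.26, limma adjusted p = 1.35e-05), a call that was lost when the probe sets of a gene were averaged (-0.73). OP9 cells were 1.98-fold below NIH3T3 cells (-0.99, adjusted p = 4.79e-05), just short of the fold required. Without OP9 replicate 1 this value was -1.02, without NIH3T3 replicate 1 it was -1.11, and after quantile normalization -1.12, all past it. In co-cultured OP9 cells Jund was 1.38-fold lower than in OP9 cells (-0.46, interval -0.70 to -0.23, adjusted p = 0.00843).

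Atf3, a stress-induced member that represses as a dimer with itself and can pair with Jun, measured 79.4 and 85.1 in co-cultured OP9, 149 and 156 in OP9, 31.97 and 32.3 in MC3T3 and 44.4 and 37.3 in NIH3T3 cells. No groups overlapped, and the order was OP9, co-cultured OP9, NIH3T3 and MC3T3 cells. In co-cultured OP9 cells it was 1.86-fold lower than in OP9 cells (log2 difference -0.89, interval -1.11 to -0.67, limma adjusted p = 0.000292), which was short of 2-fold. OP9 cells were 3.75-fold above NIH3T3 (1.91, adjusted p = 8.27e-07) and 4.75-fold above MC3T3 cells (2.25, adjusted p = 5.34e-07).

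Maff, a small Maf protein with a leucine zipper but no activation domain, ran the other way. It measured 101 and 85.6 in co-cultured OP9, 63.3 and 61.5 in OP9, 130 and 137 in MC3T3 and 291 and 289 in NIH3T3 cells. OP9 arrays were lowest and NIH3T3 arrays highest, with no overlap between groups. OP9 cells were 4.65-fold below NIH3T3 (log2 difference -2.22, limma adjusted p = 3.03e-07) and 2.13-fold below MC3T3 cells (-1.09, adjusted p = 2.19e-05), and MC3T3 cells were 2.18-fold below NIH3T3 cells (-1.12, adjusted p = 1.42e-05). Co-cultured OP9 cells were 1.49-fold above OP9 cells (0.58, interval 0.37 to 0.79, adjusted p = 0.00189).

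**Figure D2:**
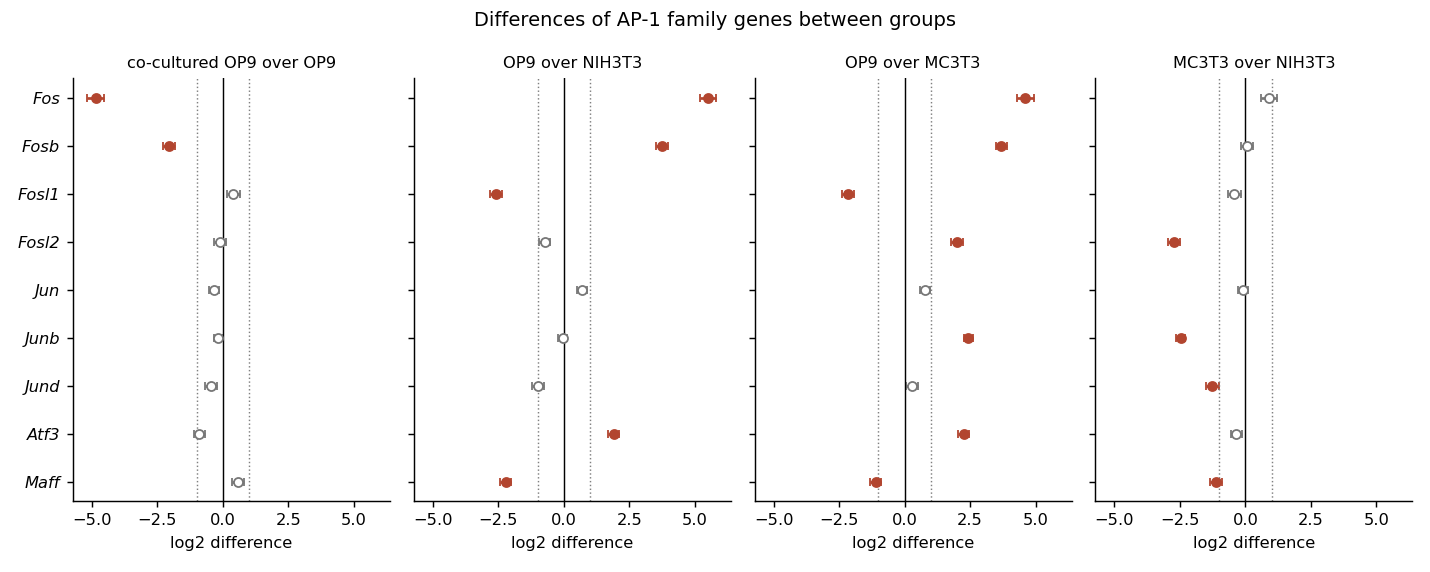
Log2 difference with its 95% interval (limma) of each AP-1 member in 4 comparisons, with filled points for called members, open points for the others and dotted lines at 2-fold in either direction. In the co-culture panel Fos at -4.86 and Fosb at -2.06 lie beyond the lines and the other 7 members within them.

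Between the lines more members differed. Set against NIH3T3 cells, OP9 cells had 3 of 9 members called higher (Fos, Fosb and Atf3) and 2 lower (Fosl1 and Maff), beside 20.5% and 10.3% of all genes (30.8% in either direction). Fosb and Atf3 entered the test through the OP9 arrays, so they had to be high there. The counts of members higher in OP9 cells and the member medians of comparisons with OP9 cells are therefore given as a description only. Against MC3T3 cells OP9 cells had 5 called higher (Fos, Fosb, Fosl2, Junb and Atf3) and 2 lower (Fosl1 and Maff), beside 10.5% and 9.41% (19.9% in either direction). MC3T3 cells had 0 called higher and 4 lower (Fosl2, Junb, Jund and Maff) than NIH3T3 cells, beside 17.8% and 9.65% (27.4% in either direction). The medians of the 9 members were -0.03, 2.0 and -0.42 in these comparisons, beside 0.16, 0.03 and 0.12 over all genes. The first and last of these medians over all genes were 0.01 after quantile normalization, which changed only the call of Jund given above. Fos in MC3T3 cells was 1.86-fold above NIH3T3 cells (log2 difference 0.90, limma adjusted p = 0.00051) and uncalled, but was called at 1.12 without MC3T3 replicate 1, the array of the group that is not described as sorted. Co-cultured OP9 cells had 2 members higher (Fosb and Atf3) and 3 lower (Fosl1, Jund and Maff) than NIH3T3 cells, beside 30.3% of all genes in either direction. With the probe sets of a gene averaged, Jund differed by -0.79 there and was uncalled. Atf3 was 2.02-fold higher there and uncalled without co-culture replicate 2 (log2 difference 0.96), without NIH3T3 replicate 2 (0.89) or with a pseudocount of 16 (0.79). Against MC3T3 cells they had 4 higher (Fosb, Fosl2, Junb and Atf3) and 1 lower (Fosl1), beside 22.9%.

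The spread of a member over the groups also varied widely. The highest group mean stood 45.5-fold above the lowest for Fos, 13.5-fold for Fosb, 6.61-fold for Fosl2 and 5.98-fold for Fosl1. For Junb, Atf3 and Maff it was 5.53-fold, 4.75-fold and 4.65-fold, and for Jund 2.73-fold. For Jun the range was 1.72-fold. A smaller range than that of Fos was found for 98.4% of the genes tested, and a smaller one than that of Jun for 37.9%. Over the 8 arrays, which share 4 group means, Fosb correlated with Atf3 at 0.98 and with Jun at 0.97, Fosl2 with Junb at 0.96, and Fosb with Fosl1 at -0.92. Fosb and Atf3 both entered the test through the OP9 arrays, which favoured the correlation between them.

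The genes whose log2 values followed a member most closely were taken among 4959 tested genes with a range of group means of at least 2-fold. For Fos these were Ppargc1a (r = 0.993), a coactivator of mitochondrial and fat cell genes, Slc36a2, Fam122b, Adam12 and Entpd5 (r = 0.983). Ppargc1a averaged 21.4 ± 1.2 in co-cultured OP9, 120 ± 15.8 in OP9, 19.7 ± 1.2 in MC3T3 and 13.4 ± 0.20 in NIH3T3 cells (SD, n = 2). For Fosb the closest gene was Adipoq (r = 0.998), which encodes the fat cell hormone adiponectin, ahead of Npnt, Akr1cl, Sult1a1 and Smad6. Adipoq averaged 347 ± 14.8 in co-cultured OP9 and 10668 ± 41.2 in OP9 cells, with 12.9 ± 0.24 in MC3T3 and 12.02 ± 1.4 in NIH3T3 cells (SD, n = 2). Fosl2 was followed by Arrb1 and Hoxa3 (r = 0.995 each), Gm6958, Nrbp2 and Tcaf2. Ppargc1a, Slc36a2 and Adam12 for Fos, and Npnt, Akr1cl and Sult1a1 for Fosb, passed the filter on low values through the OP9 arrays alone. High OP9 values were thus required of these genes, which favoured their correlation with Fos and Fosb. All these correlations describe 8 arrays in 4 groups.

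Other immediate early genes, which answer the same signals as Fos, were lower in co-cultured OP9 than in OP9 cells for 8 of 21 tested, and 1 was higher, beside 2.97% and 2.71% of all genes. The median of the list was -0.68, against -0.05 over all genes. Klf2, a zinc finger factor of quiescent cells, averaged 64.1 ± 5.2 in co-cultured OP9 and 890 ± 59.7 in OP9 cells (log2 difference -3.80, limma adjusted p = 5.21e-07, n = 2 each). The nuclear receptor gene Nr4a1 averaged 400.1 ± 1.6 and 3524 ± 52.6 in these groups (-3.14, adjusted p = 4.14e-07), and Egr1, a zinc finger factor that is often induced together with Fos, 868 ± 19.3 and 5469 ± 219 (-2.65, adjusted p = 1.29e-06). Btg2, Ier2, Zfp36, Egr2 and Ccn2 were the others called lower, by 5.46-fold to 2.42-fold. Myc, which drives cell growth, was the single gene called higher, at 569 ± 43.7 in co-cultured OP9 and 229 ± 2.3 in OP9 cells (1.31, adjusted p = 2.15e-05). As with Fos, Egr1, Nr4a1 and Klf2 belong to genes displayed by the study and were not chosen independently of these arrays.

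Between the lines, OP9 cells had 11 genes of the list called higher and 6 lower against NIH3T3 cells (median 1.09), beside 20.5% and 10.3% of all genes. Against MC3T3 cells 13 were higher and 2 lower (median 1.53), beside 10.5% and 9.41%. Nr4a1 averaged 3524 in OP9 cells, 169 in MC3T3 and 168 in NIH3T3 cells, so that the co-cultured cells at 400.1 stood between. MC3T3 cells had 5 higher and 9 lower than NIH3T3 cells, with a median of -0.56, beside 17.8% and 9.65%. The counts of the other lists are read beside the same shares.

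**Figure D3:**
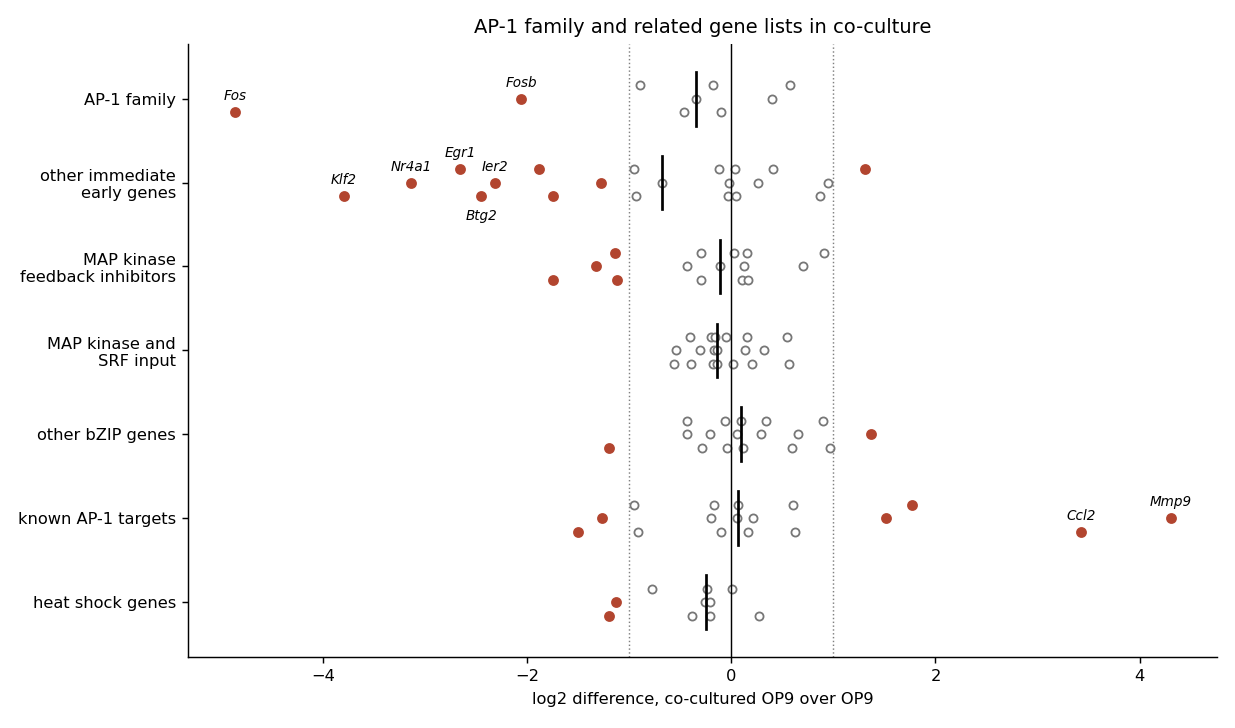
Log2 difference of co-cultured OP9 to OP9 cells for each tested gene of the AP-1 family and of the related gene lists, with filled points for called genes, open points for the others, a bar at the median of each list and dotted lines at 2-fold. Fos at -4.86, Klf2 at -3.80 and Nr4a1 at -3.14 are at the low end, while Mmp9 at 4.30 and Ccl2 at 3.42, both among known AP-1 targets, are at the high end. Mmp9 entered the test through the co-culture arrays alone.

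Of the inhibitors that MAP kinase signals induce against themselves, 4 of 15 tested were lower in co-cultured OP9 than in OP9 cells and 0 higher, with a median of -0.11. Spry1, which restrains growth factor receptors, averaged 429 ± 26.9 in co-cultured OP9 and 1439 ± 49.4 in OP9 cells (3.35-fold lower, limma adjusted p = 5.49e-05). The phosphatase genes Dusp1, Dusp5 and Dusp6 were 2.51-fold, 2.20-fold and 2.17-fold lower. Of 19 genes for the kinases and factors that act on Fos and Jun, 0 were called (median -0.14), beside 5.67% of all genes, and 3 higher and 5 lower passed the p threshold of limma below 2-fold. In OP9 cells 3 of the inhibitors were higher and 4 lower than in NIH3T3 cells, and 4 higher and 5 lower than in MC3T3 cells. In MC3T3 cells 4 were higher and 4 lower than in NIH3T3 cells. Dusp4 entered the test through the NIH3T3 arrays alone, which favoured its lower calls against NIH3T3 cells. The kinase list had 1 higher and 1 lower, 1 higher and 2 lower, and 2 higher and 1 lower in the same comparisons.

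Genes known from other work as AP-1 targets went both ways in co-culture, with 4 of 17 tested called higher and 2 lower (median 0.07). Mmp9, a gelatinase, averaged 1564 ± 82.6 in co-cultured OP9 and 79.1 ± 2.6 in OP9 cells (19.7-fold higher, limma adjusted p = 1.75e-07). It entered the test through the co-culture arrays alone, which favoured its call and its place in this count. The chemokine gene Ccl2 averaged 1391 ± 116 and 129 ± 0.52 in these groups (10.7-fold higher, adjusted p = 4.28e-07). Both genes were displayed by the study as well. Dcn, a matrix proteoglycan, and Timp1, an inhibitor of metalloproteases, were 3.42-fold and 2.85-fold higher. The collagenase gene Mmp13 was 2.84-fold and Hmox1, which degrades heme, 2.41-fold lower. Between the lines OP9 cells had 1 target higher and 6 lower than NIH3T3 cells (median -0.52), and 3 higher and 7 lower than MC3T3 cells (median -0.30). MC3T3 cells had 6 higher and 5 lower than NIH3T3 cells (median 0.37). Hbegf entered the test through the NIH3T3 arrays alone, which favoured lower values of it in the other lines. Mmp13 averaged 1994 ± 177 in OP9, 95.9 ± 3.7 in MC3T3 and 8.1 in NIH3T3 cells, and Ptgs2, a prostaglandin synthase, 75.0 ± 11.6 in OP9, 838 in MC3T3 and 2233 in NIH3T3 cells.

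Among 17 other genes of the leucine zipper class, 1 was higher and 1 lower in co-culture (median 0.10). Cebpd averaged 1299 ± 92.1 in co-cultured OP9 and 502 ± 33.6 in OP9 cells (limma adjusted p = 3.55e-05), and Cebpa, a regulator of fat cell genes, 714 ± 6.6 and 1643 ± 29.0 (adjusted p = 0.000621). When the probe sets of a gene were averaged, the difference of Cebpd was 0.66 and uncalled, and likewise that of Dcn, at 0.87. OP9 cells had 4 of these genes higher and 2 lower than NIH3T3 cells, and 3 higher and 1 lower than MC3T3 cells. Maf, a large relative of Maff, averaged 4712 ± 87.3 in OP9, 918 ± 104 in MC3T3 and 10.4 in NIH3T3 cells. MC3T3 cells had 1 higher and 1 lower than NIH3T3 cells.

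Several other values moved with the co-culture. Heat shock genes, which handling of cells can induce, were lower for 2 of 10 tested and higher for 0 (median -0.25), namely Hspa1b at 370.1 ± 7.2 in co-cultured OP9 and 848 ± 57.3 in OP9 cells and Hsph1 at 386 ± 6.5 and 845 ± 7.5. Between the lines 1 heat shock gene was called in each comparison, lower in OP9 against NIH3T3, higher in OP9 against MC3T3 and lower in MC3T3 against NIH3T3 cells. The summed level of 4 fat cell markers ranged from 11033 to 11148 in co-cultured OP9 and from 32789 to 32858 in OP9 cells, and 3 of them were called lower. The summed level of 10 named pre-B markers ranged from 691 to 709 in co-cultured OP9 and from 421 to 436 in OP9 cells. It was 296 to 315 in MC3T3 and highest in NIH3T3 cells, at 985 to 988, so the sum is not specific to pre-B cells. Between co-cultured OP9 and OP9 cells 0 of 3 tested were called, and Cd79a, Vpreb1, Ptprc, Pax5 and Rag1 stayed below 100 on all arrays. Among these Vpreb1, a part of the pre-B receptor, measured 77.7 and 76.0 in co-cultured OP9 and 25.8 and 21.6 in OP9 cells. For 8 leukocyte markers the sums ranged from 486 to 488 and from 240 to 246 in these groups, with Coro1a called higher (121 ± 6.6 in co-cultured OP9 and 24.9 ± 1.4 in OP9 cells) of 2 tested. Coro1a reached 100 on the co-culture arrays alone and entered the test through them, which favoured this call. Of 3 tested macrophage markers and 8 tested markers of stromal cells, 0 were called, and of 5 tested marrow stroma markers Il7 was called lower. The part of fewer cells of a fat-storing type or of residual pre-B cells in the fall of Fos and Fosb was not tested. On these arrays fewer cells of a type and less RNA per cell cannot be told apart.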

How the data were processed

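Biotin-labelled RNA of the 4 groups was hybridized to 2 Affymetrix arrays each. The deposited table holds intensity on a linear scale, normalized by the authors, for 45101 probe sets. RMA Express, affylmGUI and dChip are named in the methods, and the program behind this table is not given in those sources. Probe sets with 1 gene symbol were named through the platform annotation, each gene was represented by the probe set of highest mean log2 value, and no pseudocount was added. Genes entered the test if 2 or more arrays were at 100 or above. Group means over 8 arrays were fitted with limma 3.58.1 (lmFit and eBayes) in R 4.3.3, with 4 residual degrees of freedom and p-values adjusted by Benjamini and Hochberg.

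The members and lists were chosen with earlier results of these data known. All members were named, with up to 4 called genes of each list with the largest fold per comparison and 5 genes correlated with each of the 3 members of largest range. Not every such gene is described, and other list genes named were chosen after their values were seen. The model was tested on simulated data. Promoter windows came from RefSeq, and motifs were searched as exact letters on both strands. Alternatives were other filters, scalings, a pseudocount of 16, other choices of probe set, the compared arrays alone, a robust prior with trend, a replicate block, no minimum fold and leaving out each array. The main fit did not treat equally numbered arrays as pairs. Their deviations correlated above 0.1 for 1 of 6 pairs of groups, which cannot exclude that cultures were run in parallel.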

Additional observations from a re-analysis of the deposited data

How the results depend on the processing

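Without a minimum fold, the counts of members past the p threshold were 2 higher and 5 lower in co-cultured OP9 against OP9 cells, 4 higher and 4 lower in OP9 against NIH3T3 cells and 1 higher and 6 lower in MC3T3 against NIH3T3 cells. A pseudocount of 16 left 1 member lower in OP9 than in MC3T3 cells, since Maff then differed by -0.93. Leaving out single arrays gave 0 to 1 members called higher in MC3T3 against NIH3T3 cells, the higher count being Fos without MC3T3 replicate 1. The sign of small differences turned for Fosl2 in co-culture (0.22 with probe sets averaged, 0.54 by its other probe set, and -0.22 to 0.014 on leaving out single arrays, positive without OP9 replicate 1), for Junb in OP9 against NIH3T3 cells (0.030 after median scaling, and -0.093 to 0.029 on leaving out single arrays, positive without OP9 replicate 1 or NIH3T3 replicate 2), for Fosb in MC3T3 against NIH3T3 cells (-0.019 to 0.13 on leaving out single arrays, negative without MC3T3 replicate 1 or NIH3T3 replicate 2) and for Jun there (0.20 with probe sets averaged and 0.50 by its other probe set). The other probe sets were compared after the data had been seen. The cause of these changes was not tested. The replicate block, which groups arrays by their replicate number, changed no call of a member, and the co-culture counts with it were 0 higher and 2 lower. Over the alternatives Fos in co-culture ranged from -4.94 to -4.76 and Fosb from -2.15 to -1.76, both called throughout. At a filter of 200 Atf3 was no longer tested. Values near the bottom of the scale, as of Fosb outside OP9 cells, are compressed by background signal.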
